A study of Mus musculus with 23 samples.

Results

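Genes of intestinal smooth muscle and of the interstitial cells of Cajal were followed in the colon of BALB/c mice with and without chronic experimental colitis. The set held 9 genes chosen by name: Acta2, Actg2, Myh11, Des, Cnn1, Tagln, Kit, Ano1 and Etv1. The array carried 17 probe sets annotated to them, of 45101 in all, and 14 of the 17 were annotated to 1 gene only. For each gene the value used was that of the 1-gene probe set with the highest mean over the 23 arrays, which gave values for 8 of the 9 genes among 18194 genes tested. All 3 probe sets of Etv1 were annotated both to Etv1 and to the pseudogene Gm5454, so Etv1 had no value of its own, and its shared probe sets are given as such, numbered by falling mean level.

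Each array held total RNA of 1 colon sample. TNBS (trinitrobenzenesulfonic acid, a hapten given into the rectum to provoke colitis) was injected at 0.2% in PBS and ethanol over 6 weeks, the volume increasing stepwise between 1 and 2 ul per g body weight, and colons were taken 3 days after the last injection. The groups were 7 Fn14 knockout samples with TNBS, 6 wild-type samples with TNBS, 5 knockout samples without TNBS and 5 wild-type samples without TNBS, all on the BALB/c strain. Fn14 is the cell surface receptor encoded by Tnfrsf12a. The labels do not say whether the mice without TNBS received the solvent, do not give the layers of the colon wall that were taken, and do not state that each sample came from its own mouse, so the p-values measure only the spread between these samples.

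Visceral smooth muscle shortens when myosin, made of a heavy chain and regulatory light chains, pulls on filaments of smooth muscle actins, and a group of actin-binding and intermediate filament proteins marks the mature contractile cell. The contractile genes share control by serum response factor and its cofactors, which act through a DNA element called the CArG box. Interstitial cells of Cajal are the pacemaker cells of the gut muscle. They depend on the receptor tyrosine kinase Kit, carry the calcium-activated chloride channel Ano1 and use the transcription factor Etv1. Kit is also made by mast cells and by secretory cells of the colonic crypts, and Ano1 by several epithelia.

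The promoter of Acta2, the gene of vascular and visceral smooth muscle alpha actin, is shown because it was the only promoter among those read that held CArG-like letters. Windows of 300 bases, 250 before and 50 after the start of the gene, were available for 6 of the 9 genes from RefSeq (assembly GRCm38.p6, the C57BL/6J reference and not BALB/c). A strict CArG box, which is CC followed by 6 bases that are A or T and then GG and reads as the same pattern on both strands, was in none of these windows, and 1.63% of 32851 windows of all genes held one. With at most 1 of the 6 middle bases allowed to be C or G, 9.98% of all windows held a match, and among the 6 genes the Acta2 window alone did, with 2 matches that start 84 and 34 bases before the gene. The matches stand in capitals in the 250 bases before the Acta2 start, chr19:34255374-34255623 on the minus strand. They describe letters and not sites of binding.

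Acta2: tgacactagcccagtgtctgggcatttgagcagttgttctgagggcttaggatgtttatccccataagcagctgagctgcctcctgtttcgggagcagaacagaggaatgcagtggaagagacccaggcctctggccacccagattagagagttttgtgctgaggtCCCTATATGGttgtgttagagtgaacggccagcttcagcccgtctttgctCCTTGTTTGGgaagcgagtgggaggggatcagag

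The labels were checked first on the deleted gene and on cell markers. Tnfrsf12a lay between 3.84 and 4.17 on the log2 scale in knockout samples with TNBS and between 4.03 and 4.17 in those without, against 6.77 to 8.25 in wild-type samples with TNBS and 5.86 to 7.16 without, so both genotypes stood apart. Arrays of 1 group correlated at 0.989 to 0.998, and no array repeated another. Of 18 skeletal muscle markers the mean log2 level ranged between 4.99 and 7.85 in knockout samples with TNBS and between 3.46 and 6.87 in wild-type samples with TNBS, and between 5.78 and 7.50 in knockout samples without and between 3.41 and 5.06 in wild-type samples without. The mean of 10 squamous epithelium markers ranged between 4.71 and 9.11 in knockout samples with TNBS, 5.15 and 8.17 in wild-type samples with TNBS, 3.55 and 6.52 in knockout samples without and 3.25 and 4.61 in wild-type samples without. Colonic epithelium markers differed little, with means between 13.18 and 13.38 on every array. The part that these differences in sampled tissue have in the results was not tested, but both scores were used as covariates where stated.

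With chronic TNBS few of the 8 genes passed the test. In wild-type colon 1 of 8 genes, Actg2, passed the test, and in knockout colon 1 of 8, Kit, did. Against knockout without TNBS the change of Kit was a fall of 0.48 on the log2 scale, the most of any of the 8 genes in any of the 5 comparisons. Over all genes TNBS called 8.55% in knockout, 4.08% higher and 4.47% lower, and 16.5% in wild type, 10.2% higher and 6.27% lower.

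**Figure D1:**
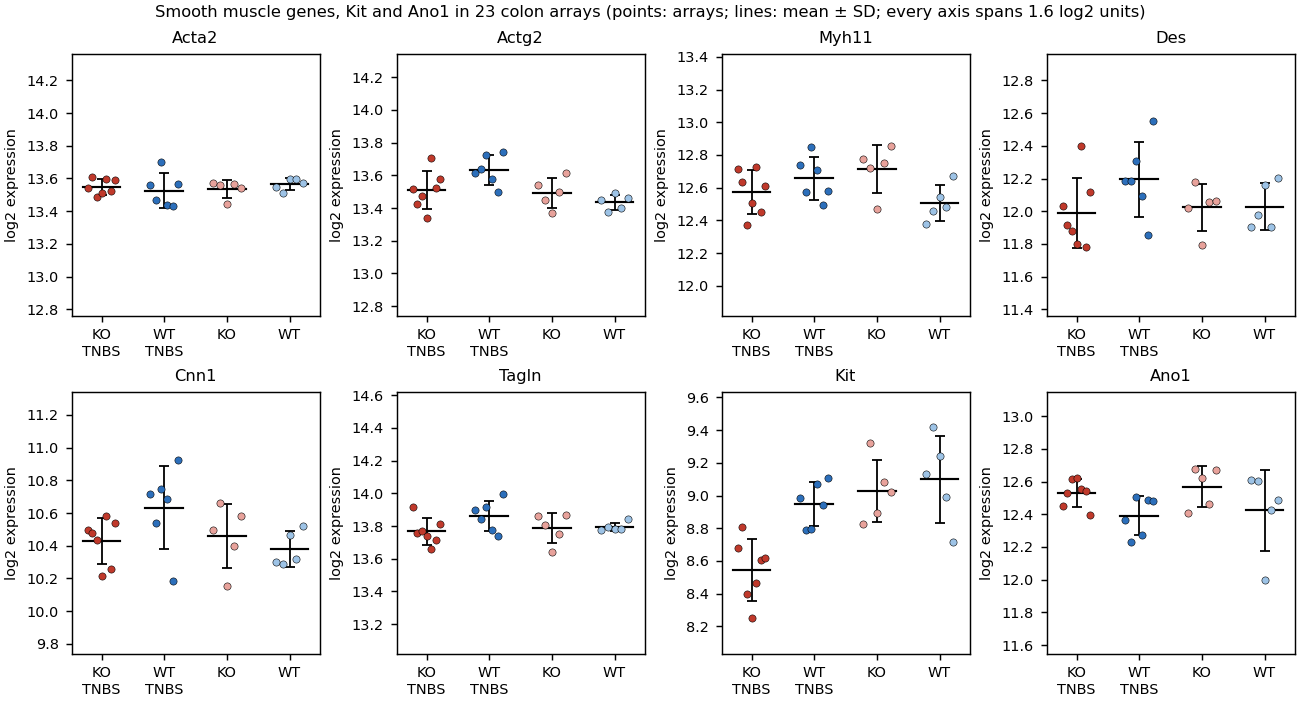
Log2 level of 8 genes on each of 23 arrays, by group, with KO the Fn14 knockout and WT wild type; points are arrays, lines the mean and SD, and each axis spans 1.6 log2 units. The 7 knockout samples with TNBS have Kit between 8.25 and 8.81, overlapping the low end of both wild-type groups, and in each of the 6 smooth muscle genes the 4 groups overlap except for Actg2 in wild type with and without TNBS.

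Actg2 encodes smooth muscle gamma actin, the enteric actin of the gut wall. Its log2 level lay between 13.50 and 13.74 in wild-type samples with TNBS, with a median of 13.63, against 13.45, 13.37, 13.49, 13.40 and 13.46 in wild-type samples without. The groups did not overlap, although the gap was narrow; over all genes 6.99% did not overlap in that direction. The mean was 13.63 ± 0.09 with TNBS (SD, n = 6) and 13.44 ± 0.05 without (SD, n = 5), a rise of 0.20 ± 0.06 (log2 fold change ± SE), or 1.15-fold, with a limma adjusted p of 0.0208. The call was lost with each array centred on its median (0.14, adjusted p 0.0579), with squamous marker level as a covariate (0.20, adjusted p 0.127), and without wild-type replicate 2 (0.18, adjusted p 0.0558), wild-type TNBS replicate 3 (0.18, adjusted p 0.05) or wild-type TNBS replicate 6 (0.17, adjusted p 0.0511).

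In knockout colon Actg2 lay between 13.34 and 13.71 with TNBS, with a median of 13.52, against 13.54, 13.45, 13.37, 13.50 and 13.61 without. These groups overlapped over most of their range. The difference was 0.01 ± 0.05 on the log2 scale, with a limma adjusted p of 1 and a 95% interval of -0.10 to 0.13. Whether TNBS acted differently in the genotypes was tested directly, and the difference of effects, knockout minus wild type, was -0.18 ± 0.08 with an adjusted p of 0.253, so a difference was not shown.

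The other 5 contractile genes did not pass the test for TNBS in either genotype. Acta2 had means of 13.55 ± 0.05 in knockout with TNBS and 13.53 ± 0.10 in wild type with TNBS, against 13.54 ± 0.05 and 13.56 ± 0.04 without. Its effect of TNBS was 0.01 ± 0.04 in knockout and -0.04 ± 0.04 in wild type, and the 95% intervals ended at -0.07 and 0.09 in knockout and at -0.12 and 0.05 in wild type. Its 2 dimmer probe sets were lower with TNBS and did not pass: one gave -0.59 in knockout (adjusted p 0.147) and -0.60 in wild type (adjusted p 0.108), the other -0.08 in knockout (adjusted p 0.963) and -0.39 in wild type (adjusted p 0.0865). With the mean of its probe sets in place of the main one, Acta2 was called for TNBS in wild type (-0.34, adjusted p 0.0208). That mean includes the 2 dimmer probe sets. Their group means lay between 4.27 and 5.21 and between 3.89 and 4.38, where the main one had 13.53 to 13.56.

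Myh11, the smooth muscle myosin heavy chain, ranged between 12.37 and 12.73 in knockout samples with TNBS (median 12.61) and between 12.49 and 12.85 in wild-type samples with TNBS (median 12.65). Without TNBS it was 12.78, 12.72, 12.47, 12.75 and 12.86 in knockout samples and 12.38, 12.46, 12.55, 12.48 and 12.67 in wild-type samples. All 4 groups overlapped. The TNBS effect was -0.14 ± 0.08 in knockout (adjusted p 0.299) and 0.15 ± 0.08 in wild type (adjusted p 0.225), and the difference of effects was -0.29 ± 0.11 with a limma adjusted p of 0.179, which does not pass.

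Cnn1 (calponin, which binds actin and slows myosin) and Des (desmin, the muscle intermediate filament) did not pass for TNBS in either genotype. Cnn1 ranged between 10.21 and 10.58 in knockout with TNBS, between 10.18 and 10.93 in wild type with TNBS, between 10.15 and 10.66 in knockout without and between 10.29 and 10.52 in wild type without. The wild-type effect of TNBS on Cnn1 was 0.25 ± 0.11 with a limma adjusted p of 0.135, and it passed only when wild-type TNBS replicate 5 was left out (0.34, adjusted p 0.0184). Des ranged between 11.78 and 12.40 in knockout with TNBS and between 11.85 and 12.55 in wild type with TNBS, against 11.80 to 12.18 in knockout and 11.90 to 12.20 in wild type without TNBS.

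Des did not pass in any comparison, and its TNBS effect was -0.03 ± 0.11 in knockout and 0.17 ± 0.12 in wild type (adjusted p 0.394). Tagln (transgelin, an actin cross-linker) ranged between 13.66 and 13.92 in knockout with TNBS and between 13.74 and 13.99 in wild type with TNBS, against 13.64 to 13.87 in knockout and 13.78 to 13.84 in wild type without TNBS. Its TNBS effect was -0.02 ± 0.05 in knockout and 0.07 ± 0.05 in wild type (adjusted p 0.416). The median effect over the 8 genes was -0.032 in knockout and 0.109 in wild type, where the median of all genes was 0.00. That median includes genes at the floor of the scale, where 27.9% of all values stood. It is therefore no close match for these brighter genes.

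Kit, the receptor tyrosine kinase that interstitial cells of Cajal and mast cells need, fell with TNBS in the knockout. It lay between 8.25 and 8.81 in knockout samples with TNBS, with a median of 8.60, against 8.83, 9.32, 8.89, 9.09 and 9.02 in knockout samples without. The groups did not overlap, although the highest treated sample lay just under the lowest untreated one, and 1.9% of all genes did not overlap in that direction. The mean was 8.55 ± 0.19 with TNBS (SD, n = 7) and 9.03 ± 0.19 without (SD, n = 5), a log2 fold change of -0.48 ± 0.11 or 1.40-fold lower, with a limma adjusted p of 0.0120. It was called without each array in turn.

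In wild-type colon Kit lay between 8.79 and 9.11 with TNBS (median 8.97), against 9.13, 9.42, 9.24, 8.99 and 8.72 without. Those groups overlapped and the difference was -0.15 ± 0.12 (limma adjusted p 0.462, 95% interval -0.40 to 0.09). Among TNBS-treated colons Kit was lower in knockout than in wild type by 0.40 ± 0.11 on the log2 scale, with an adjusted p of 0.0207, although the ranges overlapped at their edges. By group mean the order of Kit was 8.55 in knockout with TNBS, 8.95 in wild type with TNBS, 9.03 in knockout without and 9.10 in wild type without, and the last 3 overlapped in range. The difference of TNBS effects was -0.33 ± 0.16 with an adjusted p of 0.335, so the data do not show that TNBS acted differently on Kit in the genotypes.

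**Figure D2:**
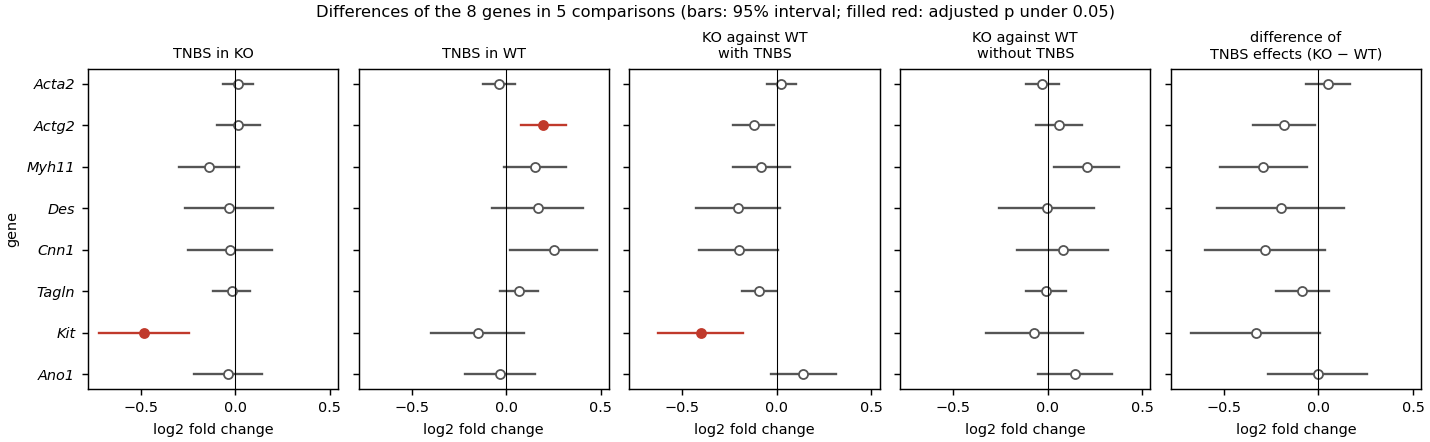
Differences of 8 genes in 5 comparisons, as log2 fold changes with 95% intervals; KO is the Fn14 knockout and WT wild type, and filled red points have an adjusted p under 0.05. Filled points are Actg2 for TNBS in wild type at 0.20 and Kit for TNBS in knockout at -0.48 and for knockout against wild type with TNBS at -0.40.

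A second probe set of Kit gave the same direction without passing. In knockout samples its log2 level was between 4.51 and 5.31 with TNBS and between 5.21 and 6.19 without, and the TNBS effect was -0.66 ± 0.21 with a limma adjusted p of 0.0694 in the fit of every probe set. Knockout against wild type with TNBS gave -0.58 ± 0.20 with an adjusted p of 0.0743. In the same fit the main probe set gave -0.48 with an adjusted p of 0.0169 and -0.40 with an adjusted p of 0.0236.

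RNA quality and other markers moved in the comparisons where Kit changed. The log2 gap of the 3′ and 5′ probe sets of Gapdh ranged between 0.91 and 0.99 in knockout with TNBS and between 0.97 and 1.17 in wild type with TNBS, against 0.96 to 1.07 in knockout and 1.00 to 1.10 in wild type without TNBS. With that gap as a covariate, Kit lost its call for TNBS in knockout (-0.40, adjusted p 0.0818) and for knockout against wild type with TNBS (-0.27, adjusted p 0.366). The call for TNBS in knockout was also lost with squamous markers as a covariate (-0.43, adjusted p 0.135). The call between genotypes was lost with skeletal muscle markers as a covariate (-0.38, adjusted p 0.0919) and without wild-type TNBS replicate 6 (-0.37, adjusted p 0.0519).

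Mast cell markers were higher with TNBS in the knockout, where Kit was lower. The mean of 12 mast cell markers ranged between 5.97 and 6.99 in knockout with TNBS and between 7.13 and 7.87 in wild type with TNBS, against 3.05 to 3.36 in knockout and 3.09 to 3.55 in wild type without TNBS. With TNBS, 9 of the 12 rose in knockout and 11 of 12 rose in wild type, none fell, and 8 of 12 were lower in knockout than in wild type, where over all genes 4.08% and 10.2% rose and 6.72% were lower in knockout. Within groups Kit and the mast cell mean had a correlation of -0.333 (Spearman -0.389), with adjusted p of 0.737 and 0.745 by permutation over 12 relations. Without the 2 arrays farthest from the median r was -0.144. The part of mast cells in the Kit result was not tested.

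**Figure D3:**
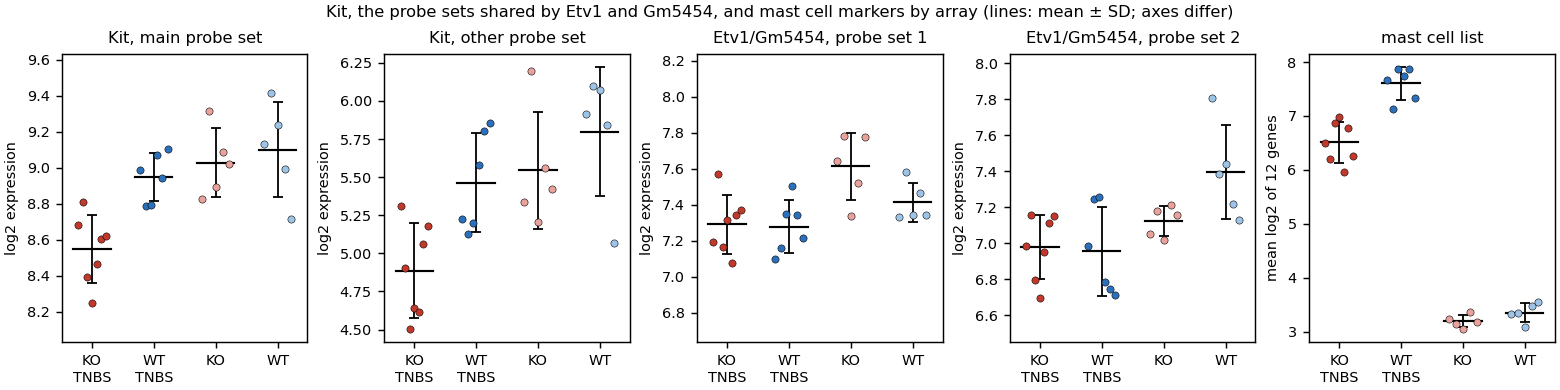
Log2 levels by array of the main and the other Kit probe set, of the 2 probe sets shared by Etv1 and Gm5454 that were above the floor, and the mean of 12 mast cell markers; KO is the Fn14 knockout and WT wild type, lines are the mean and SD, and the axes differ. Kit is between 8.25 and 8.81 in knockout samples with TNBS, and the mast cell mean is high in both TNBS groups, between 5.97 and 7.87.

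Ano1, the chloride channel of interstitial cells of Cajal, did not pass in any comparison. Its main probe set ranged between 12.39 and 12.62 in knockout with TNBS and between 12.23 and 12.51 in wild type with TNBS. Without TNBS it was 12.41, 12.68, 12.62, 12.46 and 12.67 in knockout samples and 12.61, 12.60, 12.0003, 12.42 and 12.49 in wild-type samples, the last group with 1 low value, replicate 3. The TNBS effect was -0.04 ± 0.09 in knockout and -0.03 ± 0.09 in wild type, with 95% intervals of -0.22 to 0.14 and -0.22 to 0.15, and the difference between genotypes with TNBS was 0.14 ± 0.08 (limma adjusted p 0.341). A second probe set of Ano1 ranged between 8.82 and 9.51 in knockout with TNBS and between 9.01 and 9.56 in wild type with TNBS, against 9.35 to 9.67 in knockout and 8.63 to 9.89 in wild type without TNBS. Its TNBS effect was -0.31 ± 0.17 in knockout (adjusted p 0.348) and -0.20 ± 0.17 in wild type (adjusted p 0.572).

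Probe sets 1 and 2, shared by Etv1 and Gm5454, were called for TNBS in 1 genotype each. In probe set 1 TNBS gave -0.32 ± 0.09 in knockout (adjusted p 0.0410), where samples lay between 7.07 and 7.57 with TNBS and between 7.34 and 7.78 without, and -0.14 in wild type (adjusted p 0.427). In probe set 2 the log2 level was between 6.70 and 7.16 in knockout with TNBS and between 6.71 and 7.26 in wild type with TNBS, against 7.02 to 7.21 in knockout and 7.13 to 7.81 in wild type without. There TNBS gave -0.14 in knockout (adjusted p 0.641) and -0.44 ± 0.12 in wild type (adjusted p 0.0246). The difference of effects was -0.19 (limma adjusted p 0.624) for probe set 1 and 0.30 (adjusted p 0.508) for probe set 2. A difference between genotypes was therefore not shown. Probe set 3 stood at or next to the floor of the scale. With 1 array left out the call was lost in 10 of 23 cases for probe set 1 and in 4 of 23 for probe set 2. Probe set 1 also lost its call with quantile normalization (-0.30, adjusted p 0.0504), with the squamous covariate (-0.42, adjusted p 0.0676) and with the Gapdh covariate (-0.34, adjusted p 0.104), and probe set 2 with the squamous (-0.36, adjusted p 0.293) and the skeletal muscle covariate (-0.41, adjusted p 0.0533). The signal of these probe sets cannot be assigned to Etv1 or Gm5454.

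Without TNBS 0 of 8 genes differed between knockout and wild type by the limma test (1 of 8 at an unadjusted p under 0.05), with 4.83% of all genes called. Myh11 was 0.21 ± 0.08 higher in knockout, with an adjusted p of 0.160. With TNBS 1 of 8, Kit, was called, with 10.5% of all genes called, 3.73% higher and 6.72% lower. When the 2 TNBS effects were set against each other, 0 of 8 passed by limma (2 of 8 at an unadjusted p under 0.05), with 2% of all genes past the threshold, 0.621% positive and 1.37% negative.

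Across arrays the contractile genes varied together within their groups. After group means were removed, all 15 pairs of the 6 genes correlated positively over 23 arrays, with r between 0.418 and 0.862 and a median of 0.611. Des and Cnn1 had r = 0.862 and rho = 0.895, with a permutation p of 1e-05, the smallest that the resamples can give, and an adjusted p of 0.00028 over 28 pairs; without the 2 arrays farthest from the median r was 0.883. Of the 15 pairs 11 passed, as did none of the 12 pairs that join a contractile gene with Kit or Ano1, whose r lay between -0.22 and 0.215.

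**Figure D4:**
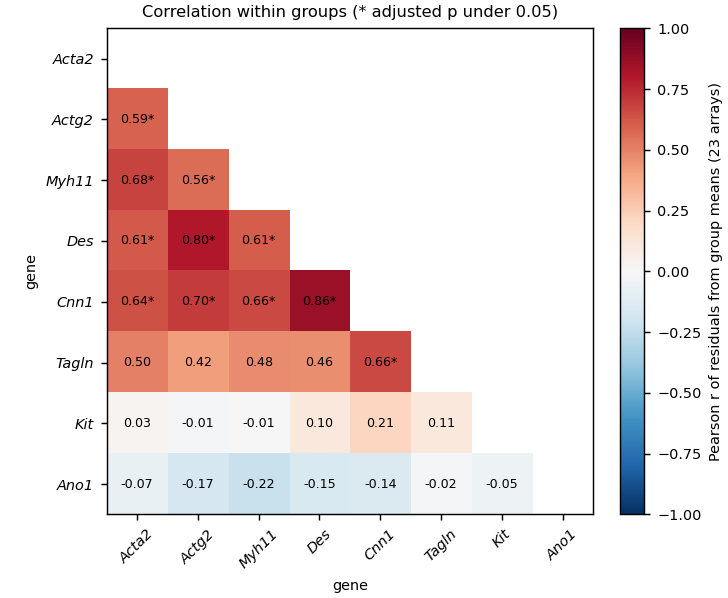
Pearson correlation of 8 genes after removal of group means, over 23 arrays, with an asterisk at an adjusted p under 0.05. The 6 smooth muscle genes form a block between 0.418 and 0.862, and Kit with Ano1 is -0.05.

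The array of knockout replicate 3, which was lowest among the knockout samples without TNBS for all of Acta2, Actg2, Myh11, Des, Cnn1 and Tagln, bears on this count. Without it 3 pairs passed in place of 11. Kit with Ano1 had r = -0.05 and rho = 0.006 (permutation adjusted p 0.97 and 0.982). A relation between Kit and Ano1, both of which are also made outside Cajal cells, was not detected over 23 arrays. In bulk samples, fewer cells of a type and less RNA per cell cannot be told apart.

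The genes most like each pattern were taken by residual correlation over 23 arrays among 9796 genes. For the mean of the 6 contractile genes they were Flna (0.811), Pdlim7 (0.796), Ckb (0.787), Synm (0.775) and Smtn (0.771). With TNBS in wild type Pdlim7 rose by 0.50 ± 0.10 (limma adjusted p 0.0024) and Flna by 0.32 (adjusted p 0.0107). Ckb was -0.09 there, Synm 0.05 and Smtn 0.02, and none of these passed. In knockout Pdlim7 was 0.04 (adjusted p 0.992), and its difference of effects, -0.46 (adjusted p 0.105), did not pass. For Kit they were Hepacam2 (0.875), Elapor1 (0.859), Slc36a4 (0.819), Nbr1 (0.797) and Galnt7 (0.779). For Ano1 they were Mfsd4a (0.937), B3gnt5 (0.911), Fads2 (0.901), Clic6 (0.894) and Adh1 (0.892).

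Likeness to Ano1 rests in part on 1 array. Without wild-type replicate 3, left out after the data were seen, the values for Ano1 were 0.861 for Mfsd4a, 0.803 for B3gnt5, 0.777 for Fads2, 0.758 for Clic6 and 0.754 for Adh1, and the 5 most like Ano1 were then Mfsd4a, Phlpp1, B3gnt5, Abcg1 and Il13ra1, so Fads2, Clic6 and Adh1 were no longer among them. Those for Kit were then 0.872 for Hepacam2, 0.857 for Elapor1, 0.83 for Slc36a4, 0.791 for Nbr1 and 0.784 for Galnt7, with Rin2 (0.804) in place of Galnt7 among the 5. With TNBS in knockout, where Kit fell, Slc36a4 fell by 0.35, Nbr1 by 0.18 and Galnt7 by 0.30, with limma adjusted p of 0.0204, 0.00927 and 0.0182, while Hepacam2 was -0.19 and Elapor1 -0.32 and neither passed. With TNBS in wild type, where Kit did not pass, Galnt7 (-0.35, limma adjusted p 0.00377), Nbr1 (-0.16, adjusted p 0.0131) and Elapor1 (-0.40, adjusted p 0.0446) fell as well. There Slc36a4 was 0.01 and Hepacam2 -0.04, and neither passed.

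A wider list of 46 smooth muscle genes, covering contraction, receptors and channels, and transcription factors, had 40 measured. With TNBS in knockout 1 of 40 rose and 1 fell, with a median of -0.037, and in wild type 4 of 40 rose and 1 fell, with a median of 0.037; the background called 8.55% and 16.5% of all genes. In wild type Flna, which cross-links actin, rose by 0.32 ± 0.08 (adjusted p 0.0107) and Actn1, which bundles actin, by 0.21 ± 0.07 (adjusted p 0.0341). Mrtfa, a cofactor of serum response factor, rose by 0.39 ± 0.07 (adjusted p 0.000697) and the transcription factor Mef2c by 0.60 ± 0.16 (adjusted p 0.0142), all by limma. With the squamous covariate Mef2c was 0.28 (adjusted p 0.44), Flna 0.26 (adjusted p 0.185) and Actn1 0.29 (adjusted p 0.0503), so these calls were lost. Actn1 also lost its call with centred arrays (0.16, adjusted p 0.064) and in 8 of 23 fits without 1 array. In knockout Myl6, a myosin light chain, fell by 0.25 ± 0.06 (adjusted p 0.0159), a call lost with the squamous (-0.23, adjusted p 0.139) and the Gapdh covariate (-0.22, adjusted p 0.0921). The main probe set of Mef2c gave 0.46 in knockout (limma adjusted p 0.0887 in the fit of all 1-gene probe sets). Its other probe sets were higher there by 0.50 or more, with adjusted p of 0.00266, 0.00823, 0.0675 and 0.0923. For the main probe set the difference of effects was -0.15 (adjusted p 0.865), and the others did not pass either. A rise of Mef2c in wild type alone was therefore not shown. In the same fit TNBS in knockout gave 0.215 for Mrtfa (adjusted p 0.0643) and 0.187 for Actn1 (adjusted p 0.0947). Their differences of effects were -0.178 (adjusted p 0.435) and -0.027, and neither passed. Flna gave -0.045 in knockout (adjusted p 0.936), and its difference of effects, -0.364 (adjusted p 0.116), did not pass either. A rise in wild type alone was thus not shown for these genes.

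**Figure D5:**
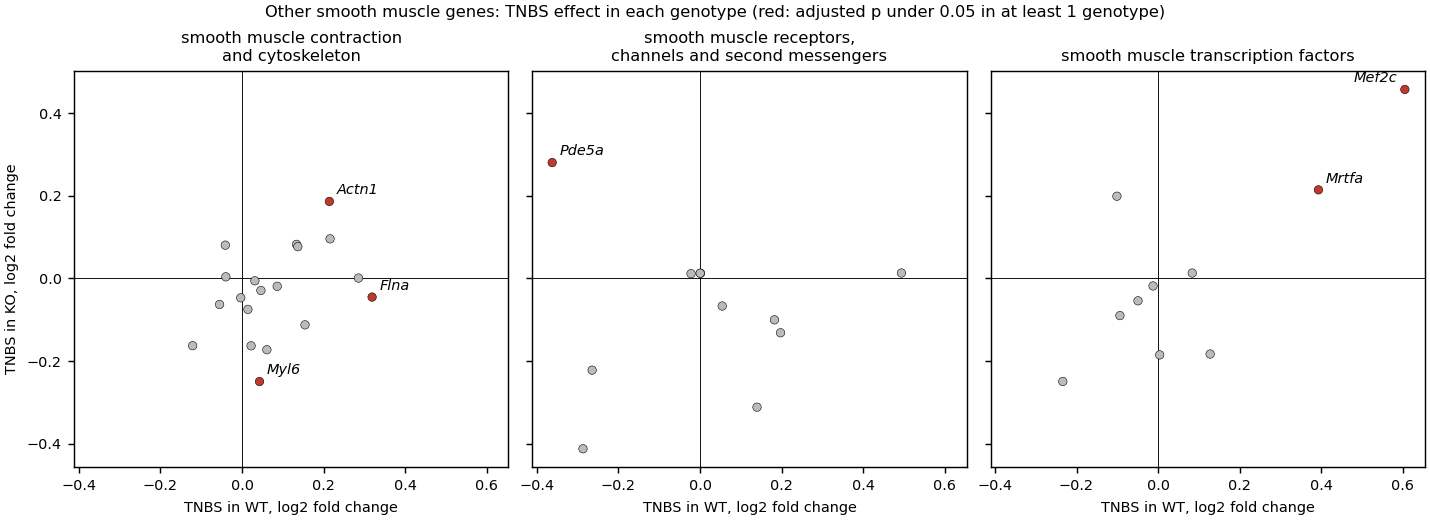
Effect of TNBS in wild type (WT, horizontal) and in Fn14 knockout (KO, vertical) on 40 other smooth muscle genes, as log2 fold changes; red points have an adjusted p under 0.05 in at least 1 genotype. Pde5a alone among the red points lies below 0 in wild type and above 0 in knockout.

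With TNBS, 1 of 40 (Pde5a) was higher and 4 of 40 were lower in knockout than in wild type, with a median of -0.069, near the 3.73% higher and 6.72% lower over all genes. The 4 were Cacna1c, a calcium channel, Foxf1, a mesenchymal transcription factor, Actn1 and Gucy1b1, a subunit of the nitric oxide receptor. Their differences were -0.29, -0.37, -0.21 and -0.34, with limma adjusted p of 0.00789, 0.0179, 0.0341 and 0.0463. The other probe sets of Cacna1c and Foxf1 gave 0.002 and -0.001, and with the mean of probe sets Cacna1c was -0.14 (adjusted p 0.339), Foxf1 -0.19 (adjusted p 0.103) and Actn1 -0.24 (adjusted p 0.0611). With the Gapdh covariate all 4 lost their calls, with adjusted p between 0.146 and 0.373. Without 1 array Gucy1b1 lost its call in 16 of 23 fits and Actn1 in 8 of 23. Without TNBS 2 of 40 were higher in knockout, Mrtfa by 0.30 (adjusted p 0.0224) and Klf5, a Krüppel-like transcription factor, by 0.18 (adjusted p 0.0283), with 2.92% of all genes called higher. In that comparison none of the 40 was called lower. Foxf1 was -0.355 (limma adjusted p 0.0783) and Actn1 -0.183 (adjusted p 0.166) there, in the fit of all 1-gene probe sets. The other probe set of Foxf1 gave 0.168, and those of Actn1 -0.12 and -0.046. For the main probe sets the difference of TNBS effects was -0.016 for Foxf1 and -0.027 for Actn1, and neither passed. Lower levels of these genes in knockout only with TNBS were therefore not shown. The other 2 probe sets of Klf5 gave -0.036 and 0.005, and its call was lost with the mean of probe sets (0.05, adjusted p 1), with quantile normalization (0.17, adjusted p 0.0526), with centred arrays (0.15, adjusted p 0.102) and in 7 of 23 fits without 1 array. With the skeletal muscle covariate both calls were lost, with adjusted p of 0.129 for Mrtfa and 0.174 for Klf5.

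Pde5a, the phosphodiesterase that breaks down cyclic GMP, was the only gene of the 40 with a called difference of TNBS effects, where 1 of 40 stands beside the 2% of all genes. Its main probe set lay between 11.65 and 12.15 in knockout with TNBS and between 11.18 and 11.51 in wild type with TNBS, against 11.61, 11.67, 11.53, 11.75 and 11.65 in knockout and 11.88, 11.75, 11.78, 11.63 and 11.60 in wild type without TNBS. TNBS gave 0.28 ± 0.08 in knockout and -0.36 ± 0.08 in wild type, and the difference of effects was 0.64 ± 0.11 with a limma adjusted p of 0.00702. The 2 other probe sets of Pde5a gave differences of -0.07 (adjusted p 0.988) and -0.02 (adjusted p 1), so the call rests on 1 of 3 probe sets. With the mean of all 3 probe sets the difference of effects was 0.18 (adjusted p 0.47). With TNBS the main probe set was 0.56 higher in knockout than in wild type (limma adjusted p 0.000109 in the fit of all 1-gene probe sets). The 2 other probe sets gave 0.22 and 0.13 there, and neither passed. Between genotypes with TNBS, Pde5a kept its call in 14 of 14 alternatives, with values between 0.30 and 0.70. The TNBS effect in knockout lost its call with the compared groups alone (0.28, adjusted p 0.0873) and with the mean of probe sets (0.016). Leaving out 1 array lost it in 2 of 23 fits. That in wild type was lost with the squamous covariate (-0.18, adjusted p 0.211) and the mean of probe sets (-0.17, adjusted p 0.159). The 2 other probe sets gave -0.14 and -0.09 in knockout and -0.08 and -0.07 in wild type, and none passed.

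Of 8 further genes of interstitial cells of Cajal and the Kit ligand, 7 were measured. Prkcq, a kinase found in these cells and in T cells, rose with TNBS in wild type by 1.05 ± 0.25 (limma adjusted p 0.00573). The call was lost with the squamous covariate (0.96, adjusted p 0.0959). Of 7 measured leukocyte markers 6 rose in the same comparison, where 10.2% of all genes were called higher. The mean log2 level of the 7 leukocyte markers ranged between 7.80 and 8.11 with TNBS and between 6.82 and 7.29 without. Their part in the Prkcq result was not tested. Prkcq was dim, with group means between 4.97 and 6.03. In knockout TNBS gave 0.42 for Prkcq (limma adjusted p 0.362 in the fit of all 1-gene probe sets). The difference of effects there was -0.63 (adjusted p 0.429), so a rise of Prkcq in wild type alone was not shown. Kitl, the ligand of Kit, gave -0.19 ± 0.07 in knockout and -0.19 ± 0.07 in wild type, with adjusted p of 0.0918 and 0.0785. With TNBS in knockout 0 of the 7 Cajal cell and ligand genes passed by limma (1 at an unadjusted p under 0.05), with 8.55% of all genes called.

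Of 4 markers of PDGFRA-positive interstitial cells, Gja1 rose with TNBS in wild type by 0.48 ± 0.09 (adjusted p 0.00138), and both Pdgfra (-0.42, adjusted p 0.00103) and Gja1 (-0.36, adjusted p 0.0106) were lower in knockout than in wild type with TNBS. Of 11 fibroblast genes 5 rose in knockout and 8 in wild type with TNBS, and 4 were lower in knockout than in wild type with TNBS, where over all genes 4.08% and 10.2% were higher with TNBS and 6.72% lower in knockout. Of 10 measured enteric neuron markers 1 fell with TNBS in knockout and 2 in wild type, Snap25 by 0.47 in each genotype and Calb2 by 0.89 in wild type, where over all genes 4.47% fell in knockout and 6.27% in wild type.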

How the data were processed

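The authors deposited log2 expression values of 45101 probe sets on 23 arrays in the series' value table. Per the submitters' processing notes the tools were RMA and GCRMA, which normalize and summarise probe signals; the one behind these values is not stated. The values ran between 2.17 and 15.98, 27.9% of them at the lowest. Annotation named 1 gene for 34958 probe sets, several for 932 and none for 9211. Per gene, the 1-gene probe set with the highest mean was fitted: limma 3.58.1 (R 4.3.3) with 4 group means, Benjamini-Hochberg adjustment over 18194 genes and a threshold of 0.05. Correlations used 100000 permutations within groups (1e+05). Named genes were the members, the 5 genes most like each pattern among those with a mean log2 of at least 6, and called genes of the smooth muscle and Cajal cell lists; genes of the neighbouring lists were named after their values were seen. Members and lists were chosen with earlier results of these data known. Alternatives covered normalization, probe set choice, dim probe filters, covariates, array weights, a replicate block and leaving out each array. The script was tested on simulated data. The number of arrays limits the precision.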

Additional observations from a re-analysis of the deposited data

Results flagged for a closer look

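Sample values stood apart from the rest of their group in 9 of 76 sets of 1 gene in 1 group, judged by the gap of the highest or lowest sample as a share of the group's range; chance flags about 1 in 20. Knockout replicate 3 without TNBS was lowest for Acta2 (0.763), Cacna1c (0.75) and Mef2c (0.755). Wild-type replicate 5 was highest for Tagln (0.784) and Flna (0.74), and wild-type replicate 4 for Klf5 (0.815). Among TNBS samples, knockout replicate 5 was highest for Flna (0.624), knockout replicate 4 for Prkcq (0.576) and wild-type replicate 3 for Gucy1b1 (0.649). The TNBS effect on Pde5a differed between knockout and wild type by 0.643 on the log2 scale by the interaction test, in 1 of its 3 probe sets.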

How the results depend on the processing

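Of 8 genes in 5 comparisons, Kit kept its fall with TNBS in knockout without each array in turn, and calls moved under some settings, whose causes were not tested. Member calls for TNBS in wild type were 0 with centred arrays and with squamous markers as covariate, and 2 with the mean of a gene's probe sets; for TNBS in knockout they were 0 with the squamous or the Gapdh covariate, and for knockout against wild type with TNBS 0 with the skeletal muscle or the Gapdh covariate. With 1 array left out they ranged between 0 and 2 for TNBS in wild type and for knockout against wild type with TNBS. Other smooth muscle calls were 1 for TNBS in wild type (squamous); 1 (compared groups alone, or Gapdh) and 4 (mean log2 of at least 5) for TNBS in knockout; 3 (compared groups alone), 2 (skeletal) and 1 (Gapdh) between genotypes with TNBS; 1 (quantile, or mean of probe sets) and 0 (skeletal) without TNBS; and 0 for the difference of effects (mean of probe sets). With 1 array left out these were 1 to 4, 3 to 6, 0 to 3 and 1 to 2 for TNBS in knockout, genotypes with TNBS, genotypes without TNBS and the difference. Pairs of genes called were 4 with the mean of probe sets and 3 to 14 with 1 array left out.

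Counts over all genes were 856 (compared groups alone), 474 (squamous) and 813 (Gapdh) for TNBS in knockout, against 1556; 920 (squamous) for TNBS in wild type, against 2998; 738 (Gapdh) for genotypes with TNBS, against 1902; and 288 (compared groups alone) and 104 (skeletal) for genotypes without TNBS, against 879. With 1 array left out they ranged between 1014 and 1835 for TNBS in knockout, 458 and 1021 for genotypes without TNBS and 213 and 443 for the difference, against 363. The share of calls that were higher moved to 43.4% with centred arrays for TNBS in wild type, against 62.0%. For genotypes without TNBS it was 49.7% with quantile normalization and 41.6% with centred arrays, against 60.4%. For the difference it was 41.6% and 41.3%, against 31.1%.

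Signs turned only for differences that did not pass. TNBS in knockout gave Acta2 -0.004 (centred), -0.219 (mean of probe sets) and -0.002 (squamous), Actg2 -0.002 (centred) and -0.029 (Gapdh), Tagln 0.004 (array weights) and Des 0.020 (squamous). Knockout against wild type without TNBS gave Tagln 0.018 (quantile) and Des 0.021 (array weights), 0.139 (skeletal) and 0.006 (squamous). The difference of effects of Ano1 was 0.030 (centred), 0.009 (skeletal) and 0.011 (Gapdh). With 1 array left out, TNBS in knockout ranged between -0.010 and 0.024 for Acta2, -0.018 and 0.044 for Actg2, -0.107 and 0.021 for Cnn1, -0.101 and 0.006 for Des and -0.055 and 0.001 for Tagln, TNBS in wild type between -0.139 and 0.013 for Ano1, genotypes without TNBS between -0.046 and 0.051 for Des, -0.166 and 0.009 for Kit and -0.029 and 0.027 for Tagln, and the difference of effects between -0.051 and 0.101 for Ano1.

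Replicate numbers are shared by groups. Of 31 pairs of arrays with 1 number in different groups, 10 correlated above 0.1 after group means were removed (range -0.46 to 0.431, median 0.0305). Pairs of arrays with different numbers were not compared, so these values cannot say whether the numbers pair the samples. With the replicate block 0 members were called for TNBS in wild type (Actg2 0.183, adjusted p 0.0519), 1230 genes for genotypes with TNBS and 172 for the difference, calls were lost for Etv1 and Gm5454 probe set 1 (TNBS in knockout, adjusted p 0.06), Pde5a (TNBS in knockout, 0.0677), and, for knockout against wild type with TNBS, Actn1 (0.0657) and Gucy1b1 (0.132), Actg2 for TNBS in knockout was -0.010 and the difference for Ano1 0.018.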
